A study of Mus musculus with 4 samples.

Results

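The genes described here write, maintain, read and remove 5-methylcytosine in DNA. They are Dnmt1, Uhrf1 and Uhrf2 (maintenance), Dnmt3a and Dnmt3b (de novo methylation), Tet1, Tet2, Tet3 and Tdg (removal) and Mbd2 (a reader of methylated CpG). All 10 were chosen by gene name, and every non-control probe that carried one of the names on the array was kept. This gave 30 probes of the 56310 usable ones, with between 1 probe (Dnmt1) and 5 probes (Uhrf2) a gene.

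RNA of murine regulatory T (Treg) cells differentiated in vitro was hybridised to 4 single-colour Agilent arrays. There were 2 arrays labelled Junbfl/flCd4-Cre and 2 labelled Junbfl/fl, all of the C57BL/6 strain. Both genotypes carry floxed Junb, the gene of an AP-1 transcription factor subunit. The Cre recombinase of the Junbfl/flCd4-Cre genotype is driven by the Cd4 promoter, so it acts across the T cell lineage and not in Treg cells alone. Both genotypes had the same treatment, which was 3 days of culture of sorted naive CD4+ T cells with anti-CD3 bound to the plate at 1 μg/ml and 0.5 μg/ml of anti-CD28, with 5 μg/ml of each blocking antibody (to IFN-γ and to IL-4), and with recombinant human TGF-β1 at 5 ng/ml. The labels give no age, and the extraction label names colon where the other labels name cultured Treg cells. Whether arrays that share a genotype stem from different mice or cultures is not stated. The p-values therefore reflect only array-to-array spread, possibly technical.

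When DNA is replicated, the new strand is unmethylated. UHRF1 binds the resulting hemimethylated CpG sites and recruits DNMT1, which copies the mark, while DNMT3A and DNMT3B place methyl groups on unmarked DNA. TET enzymes oxidise 5-methylcytosine, TDG excises the oxidised bases for repair, and in Treg cells demethylation of a conserved Foxp3 intronic element goes with stable Foxp3 expression.

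Levels are given as log2 of the processed intensity minus the 75th percentile of the same array, so that 0 is that percentile. Levels of different probes cannot be ranked, because each probe has its own affinity. Differences are the Junbfl/flCd4-Cre mean minus the Junbfl/fl mean from limma, ± its standard error. The p-values were adjusted by the Benjamini-Hochberg method over all 33606 probes tested, namely those that 1 or both genotypes showed well above background on each of their 2 arrays. Array number 1 and array number 2 are those of the titles.

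The targeted gene was examined first. One Junb probe had levels of -4.86 and -6.10 on the Junbfl/flCd4-Cre arrays 1 and 2, neither well above background, against -1.68 and -2.19 on the Junbfl/fl arrays. That is at least 5.71-fold lower in Junbfl/flCd4-Cre (limma, adjusted p = 0.0396), with the dim arrays set at their lowest signal well above background. This probe entered the test only because Junbfl/fl was well above background, so the filter favoured this direction. A second Junb probe read 3.14 and 6.64 on the Junbfl/flCd4-Cre arrays, against 6.02 and 5.97 on the Junbfl/fl arrays, so on Junbfl/flCd4-Cre array 2 it was at the Junbfl/fl level. Its difference was -1.10 ± 1.23 (limma adjusted p = 0.527). Whether the second probe lies outside the deleted sequence was not determined, and every direction below rests on the labels.

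The arrays had between 59.3% and 66.3% of non-control spots well above background. Pearson correlations across the tested probes were 0.978 between the Junbfl/flCd4-Cre arrays, 0.981 between the Junbfl/fl arrays and 0.930 to 0.953 between genotypes. Brightness moved with the difference over all tested probes: with the probes in 5 equal classes of mean signal, from dimmest to brightest, the median log2 difference was 0.68, 0.27, 0.01, -0.23 and -0.35. The member probes were spread over these classes as 4, 4, 9, 5 and 7 probes, and each probe's difference is drawn beside the median of its own class in the plot of differences. The part of brightness in the members' differences was not tested. T cell markers were well above background on all 4 arrays for 8 of 8 genes, and Treg markers for 5 of 5. Among the 8 T cell markers 3 were above 0 and 5 below, and 2 were called lower, against 1.27% of all gene names. Of the 10 colon epithelium markers 6 were well above background on both Junbfl/flCd4-Cre arrays and 3 on both Junbfl/fl arrays, while Krt20, Cdh1, Vil1 and Muc2 were so on none. Of the 6 tested 5 were above 0 and 1 was called, where 6.79% of all gene names were called higher. The called one was the ion exchanger gene Slc26a3, at least 8.44-fold higher in Junbfl/flCd4-Cre (limma adjusted p = 0.0265). It was dim on both Junbfl/fl arrays, so it was tested only because Junbfl/flCd4-Cre was bright. The summed scaled signal of the 10 genes was 1.39 and 1.27 in Junbfl/flCd4-Cre and 0.709 and 0.763 in Junbfl/fl (in units of the array's 75th percentile), and the part of such cells in the members' differences was not tested.

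Among the 29 member probes tested, 1 had a limma adjusted p under 0.05 as higher in Junbfl/flCd4-Cre and 0 as lower. Median scaling called 1 higher and 14 lower, where it called 38.6% of all 33606 tested probes (2405 higher and 10567 lower). Limma trend called 1 higher and 5 lower, where it called 15.6% of all tested probes (2791 higher and 2448 lower). In the fit as reported, 6.78% of all tested probes were called, 5.53% as higher and 1.25% as lower. At an unadjusted p under 0.05 there were 5 member probes higher and 9 lower, where all tested probes gave 38.2%, split into 19.8% higher and 18.4% lower. At 22 member probes the genotypes were fully separated, 6 with Junbfl/flCd4-Cre above and 16 with it below, against 72.2% of all tested probes, 34.4% above and 37.8% below. With any 1 of the 4 arrays left out, 0 of all tested probes were called (limma; 7315 to 11361 at an unadjusted p under 0.05). A fit of 3 arrays thus calls nothing here and says nothing about any single call, so differences without 1 array are given by size. The median difference was -0.17 over the 29 member probes and -0.01 over all tested probes. With 2 arrays a genotype an exact two-sided permutation test of a single probe cannot give a p under 0.333, so only the fit that shares its spread across probes was used.

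**Figure D1:**
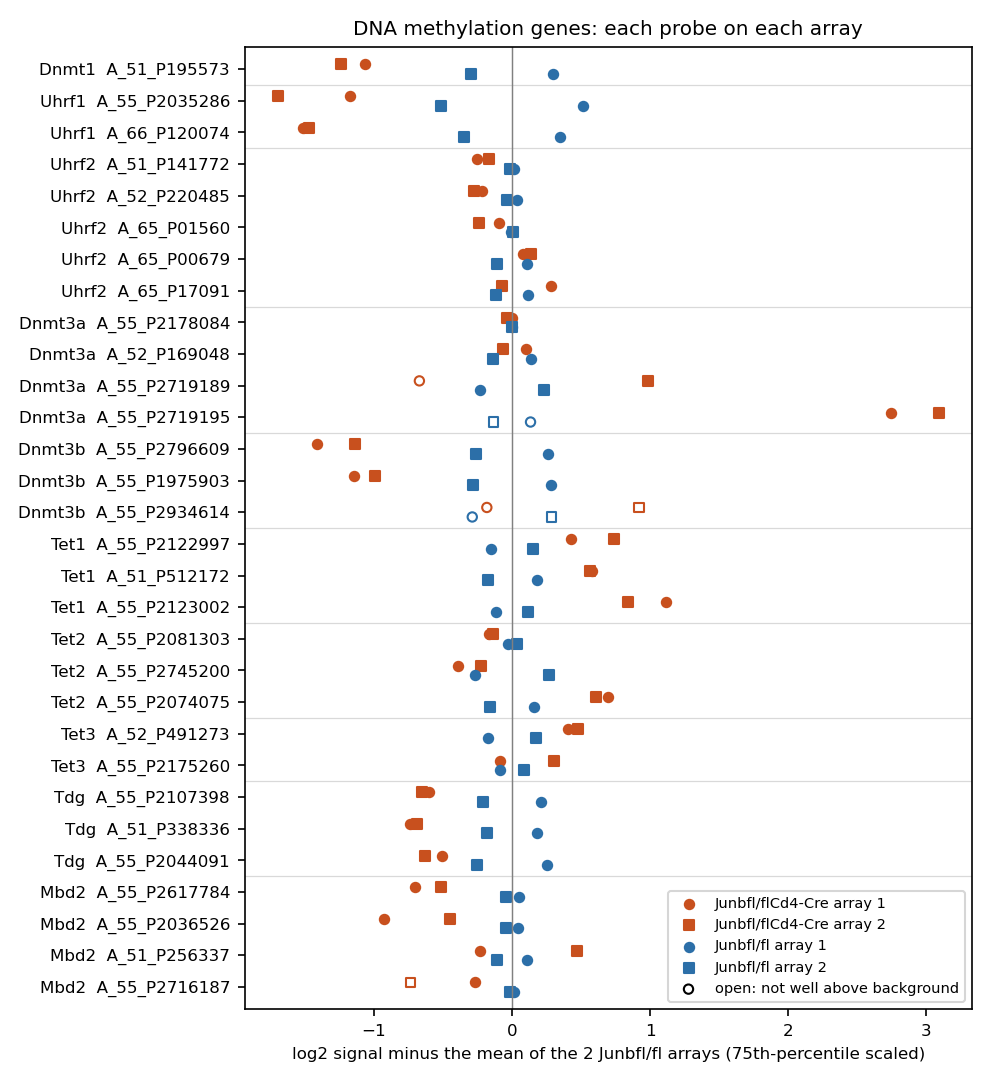
Level of each of the 30 member probes on each array, as the log2 scaled signal minus the mean of the 2 Junbfl/fl arrays (x axis, log2), with Junbfl/flCd4-Cre in orange above Junbfl/fl in blue in each row and open symbols where the probe was not well above background. Dnmt1, Uhrf1 and Dnmt3b probes with signal lie to the left in Junbfl/flCd4-Cre, Uhrf2 and the brighter Dnmt3a probes lie near 0, and Tet1 lies to the right.

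The maintenance genes differed among themselves. Dnmt1 and Uhrf1 were, with Dnmt3b, the members lowest relative to Junbfl/fl, and Uhrf2 was close to the Junbfl/fl level. None of the 8 maintenance probes passed the test as reported here. Dnmt1, the maintenance methyltransferase, was measured by 1 probe on the minus strand at chr9:20711973-20712341 (mm9). Those coordinates span 369 bases for a 60-base probe, so the probe joins sequence from separate exons. The Uhrf1 probe A_66_P120074, at chr17:56451668-56452321 (mm9, plus strand), spans 654 bases in the same way. Both probe sequences are shown because these junction probes read spliced transcript of the maintenance enzyme and of the protein that recruits it.
Dnmt1 probe A_51_P195573: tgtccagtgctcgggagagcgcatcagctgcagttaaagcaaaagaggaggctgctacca
Uhrf1 probe A_66_P120074: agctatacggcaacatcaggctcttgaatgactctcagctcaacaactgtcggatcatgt

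Dnmt1 had levels of 1.28 and 1.11 on the Junbfl/flCd4-Cre arrays, against 2.65 and 2.05 on the Junbfl/fl arrays. Both Junbfl/flCd4-Cre arrays lay below both Junbfl/fl arrays, and the 2 Junbfl/fl arrays were farther apart than the 2 Junbfl/flCd4-Cre arrays. The means were 1.20 ± 0.12 in Junbfl/flCd4-Cre and 2.35 ± 0.42 in Junbfl/fl (SD, n = 2 each), a difference of -1.15 ± 0.26 (95% CI -1.87 to -0.44, limma adjusted p = 0.0718), or 2.23-fold lower. The median of its brightness class was -0.23. In bulk RNA such as this, fewer cells of a type and less RNA per cell cannot be told apart.

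Uhrf1, which reads hemimethylated DNA and recruits DNMT1, gave the same order with both of its probes. The brighter probe, at chr17:56462770-56462829 (mm9), had levels of 3.89 and 3.37 in Junbfl/flCd4-Cre, against 5.58 and 4.56 in Junbfl/fl. Its difference was -1.44 ± 0.43 (95% CI -2.61 to -0.26, limma adjusted p = 0.0976). The genotypes did not overlap, and the Junbfl/fl arrays were farther apart here than for any other member probe (SD 0.72). The junction probe had levels of -2.53 and -2.49 in Junbfl/flCd4-Cre, against -0.67 and -1.37 in Junbfl/fl, and a difference of -1.49 ± 0.29 (95% CI -2.28 to -0.71, limma adjusted p = 0.0597). The probes of Uhrf1 were thus 2.71-fold and 2.82-fold lower in Junbfl/flCd4-Cre, without overlap and without passing the threshold.

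Uhrf2, the paralog of Uhrf1, which does not replace it in DNMT1 recruitment, had differences nearer 0. Its brightest probe had levels of 2.53 and 2.62 in Junbfl/flCd4-Cre, against 2.80 and 2.77 in Junbfl/fl. The difference was -0.21 (95% CI -0.62 to 0.20, limma adjusted p = 0.346). Over the 5 Uhrf2 probes the differences ran from -0.25 to 0.11, with 3 below 0 and limma adjusted p-values between 0.281 and 0.723. With median scaling the brightest probe was at -0.74 (limma adjusted p = 0.0475) and the next at -0.78 (limma adjusted p = 0.0457), where the median of all tested probes was -0.54. The same scaling called Dnmt1 (-1.69, limma adjusted p = 0.0331) and both Uhrf1 probes (-1.97 and -2.03, limma adjusted p = 0.0349 and 0.0331). Limma trend called Dnmt1 (adjusted p = 0.0453) and the Uhrf1 junction probe (adjusted p = 0.0424), but not the brighter Uhrf1 probe or any Uhrf2 probe. In the fit as reported, the interval of the brightest Uhrf2 probe does not reach the Dnmt1 difference of -1.15, but the genes were not tested against each other.

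Promoter sequence was taken from RefSeq (GRCm38.p6), as windows from 250 bases before to 50 bases after each annotated start, and 14 windows matched 9 of the 10 genes. AP-1 sites were searched because Junb encodes an AP-1 subunit, and E2F sites because E2F factors drive genes of DNA replication. The AP-1 motif TGANTCA, read on both strands, was in 0 of the 14 member windows and in 7.81% of all 32851 windows. The E2F motif TTTNNCGC, with each N being C or G and both strands read, was in 2 of the 14 member windows and in 2.26% of all windows. These 2 windows belonged to Dnmt1 and Uhrf1. The member windows held a median of 27 CpG dinucleotides (2 to 57), against 7 over all windows. The matched stretches are shown in gene orientation with the E2F match in capitals, for Uhrf1 the 250 bases before the start at chr17:56304063-56304312 (plus strand) and for Dnmt1 the 30 bases around the match at chr9:20952824-20952853 (minus strand), since that window lies downstream of another annotated Dnmt1 start.
Uhrf1 upstream: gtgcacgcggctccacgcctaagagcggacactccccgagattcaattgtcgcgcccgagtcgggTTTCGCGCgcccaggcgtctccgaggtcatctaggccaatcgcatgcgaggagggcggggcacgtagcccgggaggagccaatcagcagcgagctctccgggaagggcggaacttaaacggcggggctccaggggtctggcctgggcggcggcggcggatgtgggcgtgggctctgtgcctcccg
Dnmt1 upstream: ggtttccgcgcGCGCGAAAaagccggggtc

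The Uhrf1 match covers positions -185 to -178, and the Dnmt1 match, which lies on the opposite strand, covers -219 to -212, counting back from -1 as the base before the start. A second Dnmt1 match lies at 34 to 41 after the start. A match is a run of letters and not a measured binding site.

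The de novo methyltransferases did not share a direction. Dnmt3b had levels of 1.51 and 1.78 in Junbfl/flCd4-Cre, against 3.18 and 2.66 in Junbfl/fl, for its brightest probe at chr2:153513402-153513461 (mm9). The difference was -1.28 ± 0.25 (95% CI -1.97 to -0.59, limma adjusted p = 0.0618), or 2.42-fold lower. A second Dnmt3b probe had levels of -0.50 and -0.35 in Junbfl/flCd4-Cre, against 0.93 and 0.36 in Junbfl/fl, a difference of -1.07 ± 0.25 (limma adjusted p = 0.0746). Neither probe overlapped between genotypes, neither passed the threshold, and both lay below the medians of their brightness classes (-0.35 and 0.01). Median scaling called both (-1.81 and -1.60, limma adjusted p = 0.0331 for each), as did limma trend (adjusted p = 0.0391 and 0.0485). The third Dnmt3b probe was not well above background on any array and was not tested.

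Dnmt3a showed no detectable difference by its brightest probe, at chr12:3914320-3914379 (mm9). It read 2.74 and 2.70 in Junbfl/flCd4-Cre, against 2.74 and 2.74 in Junbfl/fl, a difference of -0.02 ± 0.15 (95% CI -0.42 to 0.38, limma adjusted p = 0.929). A second probe, also of the transcript NM_007872, gave 0.02 (limma adjusted p = 0.957), with the genotypes overlapping. The third probe was well above background on 3 arrays and gave 0.16 (limma adjusted p = 0.863).

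The fourth Dnmt3a probe, A_55_P2719195 at chr12:3895249-3895308 (mm9, plus strand), was the 1 member probe called. It is listed against the Ensembl transcript ENSMUST00000172879, and 26 of its 60 bases are A. Its levels were -2.87 and -2.52 in Junbfl/flCd4-Cre, against -5.48 and -5.75 in Junbfl/fl, where it was not well above background on either array. It was at least 3.92-fold higher in Junbfl/flCd4-Cre (limma adjusted p = 0.0265), with Junbfl/fl set at each array's lowest signal well above background. The probe entered the test only because Junbfl/flCd4-Cre was well above background, so the filter favoured this direction. The fitted difference was 2.92, and 2.74 to 3.09 with any 1 array left out (limma adjusted p 0.0811 to 0.116, where no probe of the array was called). Quantile normalization kept the call (2.28, limma adjusted p = 0.048), as did median scaling (2.38, limma adjusted p = 0.0282). Limma trend (adjusted p = 0.0302) and the replicate number as a block (limma adjusted p = 0.0120) also kept it. The call was lost with normexp background correction and quantile normalization together (0.32, adjusted p = 0.0908), without a filter (adjusted p = 0.0993) and on the authors' deposited log2 signals (0.63, adjusted p = 0.0648). Of the 4 Dnmt3a probes this dim one alone was called, and the difference between it and the gene's other probes was not tested.

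**Figure D2:**
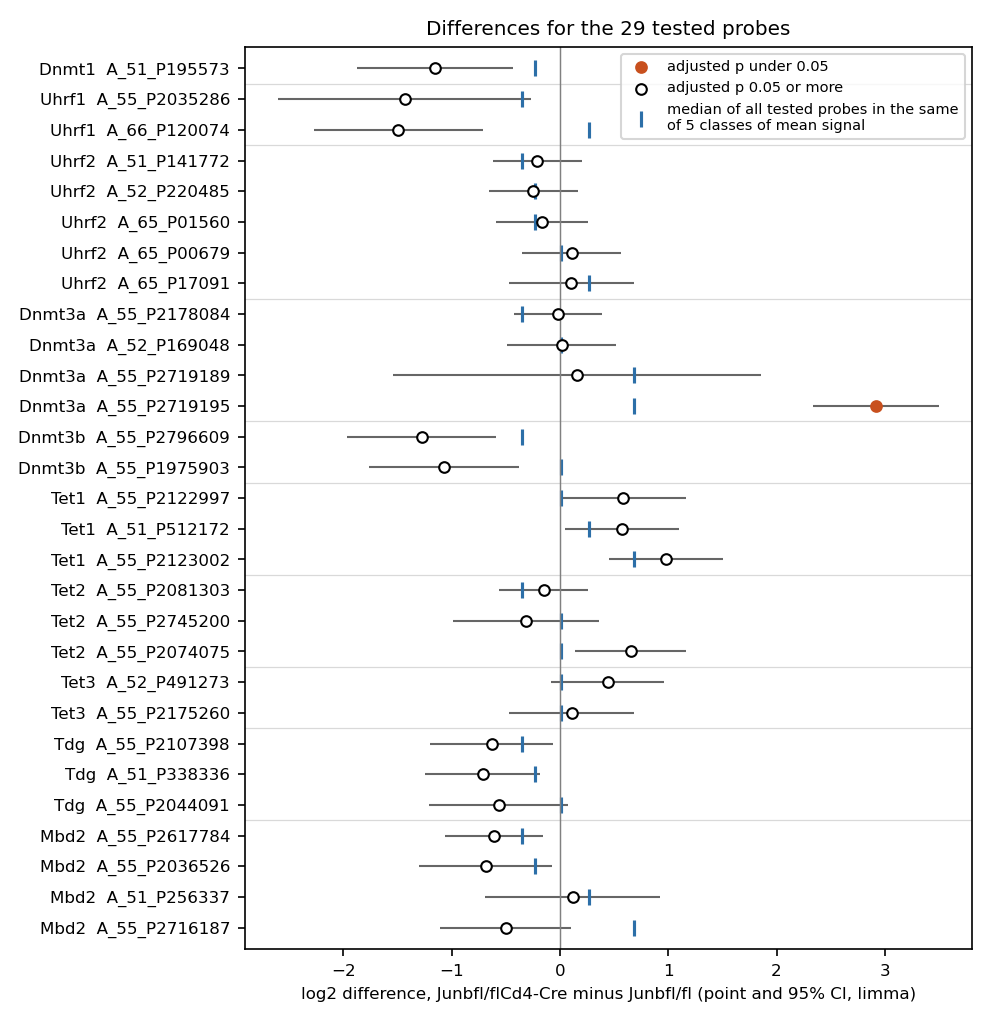
log2 difference of each tested member probe, Junbfl/flCd4-Cre minus Junbfl/fl, with its 95% confidence interval from limma (x axis), the called probe filled, and a blue tick at the median of all tested probes of similar brightness. The filled Dnmt3a probe stands at 2.92 on the fitted scale, which is not a bound, and the Dnmt1, Uhrf1 and Dnmt3b intervals lie below 0.

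The erasers split by gene. Tet1, a dioxygenase that oxidises 5-methylcytosine, had values above the Junbfl/fl level with all 3 probes. Its brightest probe had levels of -1.42 and -1.10 in Junbfl/flCd4-Cre, against -1.99 and -1.70 in Junbfl/fl, a difference of 0.58 ± 0.21 (limma adjusted p = 0.129). The other Tet1 probes differed by 0.57 (adjusted p = 0.116) and 0.98 (adjusted p = 0.0618, limma), the second of them in the dimmest class, where the median of all tested probes was 0.68. None overlapped between genotypes and none passed, and with median scaling, which put the median of all tested probes at -0.54, the 3 differences were 0.05, 0.04 and 0.44.

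Tet2, the TET enzyme best known as a tumour suppressor in blood cells, had no common direction across its probes. The brightest read 2.23 and 2.25 in Junbfl/flCd4-Cre, against 2.36 and 2.42 in Junbfl/fl, a difference of -0.15 (95% CI -0.56 to 0.26, limma adjusted p = 0.475). The probe at chr3:133176421-133176479 (mm9, minus strand), which lies nearest the 5′ end of the gene among the 3, read -0.29 and -0.38 in Junbfl/flCd4-Cre, against -0.82 and -1.14 in Junbfl/fl. Its difference was 0.65 ± 0.19 (limma adjusted p = 0.0933), and it is listed against another transcript than the other Tet2 probes. The remaining probe gave -0.31 (limma adjusted p = 0.385), with the genotypes overlapping. With median scaling that remaining probe was at -0.84 (limma adjusted p = 0.0443), where the median of all tested probes was -0.54. The probes of Tet2 thus disagreed in sign, and none passed in the fit as reported.

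Tet3, the third dioxygenase, gave 0.44 (limma adjusted p = 0.172) and 0.11 (limma adjusted p = 0.716) with its probes. The brighter probe read -0.85 and -0.78 in Junbfl/flCd4-Cre, against -1.43 and -1.08 in Junbfl/fl, and with median scaling its difference was -0.09.

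Tdg, the glycosylase that excises oxidised 5-methylcytosine, was lower in Junbfl/flCd4-Cre on both arrays with all 3 probes, without a call. The brightest had levels of 3.57 and 3.52 in Junbfl/flCd4-Cre, against 4.38 and 3.97 in Junbfl/fl, a difference of -0.63 ± 0.21 (95% CI -1.20 to -0.06, limma adjusted p = 0.112). The median of its brightness class was -0.35, and with quantile normalization the probe was at -0.32 (limma adjusted p = 0.257). The other Tdg probes gave -0.71 (adjusted p = 0.0865) and -0.57 (adjusted p = 0.160, limma). The first pair overlaps in position and sequence, so the 3 probes are not independent readings.

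Mbd2, which binds methylated CpG and brings the NuRD repressor complex to it, had values below the Junbfl/fl level with its brighter probes. The brightest read 3.91 and 4.10 in Junbfl/flCd4-Cre, against 4.66 and 4.57 in Junbfl/fl, a difference of -0.61 ± 0.16 (95% CI -1.06 to -0.16, limma adjusted p = 0.0858). The median of its brightness class was -0.35, and with quantile normalization the probe was at -0.28 (limma adjusted p = 0.299). The next gave -0.69 (limma adjusted p = 0.110). The dim probes gave 0.12 (limma adjusted p = 0.780) and -0.50 (limma adjusted p = 0.175), so the Mbd2 probes did not all share a sign.

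The authors' deposited table, made by transcript accession, holds 19 entries for the 10 genes. Of these 19, 0 had an adjusted p under 0.05 in the authors' deposited table, where 2.41% of all 26594 entries did, and 8 had an unadjusted p under 0.05, where 32.8% of all entries did. The authors' deposited table gives log2 differences of -0.92 for Dnmt1 (adjusted p = 0.0869), -0.96 for Dnmt3b (adjusted p = 0.0737) and -1.15 and -1.20 for Uhrf1 (adjusted p = 0.102 and 0.0649). Its eraser entries were 0.14 and 0.12 for Tet1, 0.43 and -0.11 for Tet2, 0.077 for Tet3, and -0.53 and -0.27 for Tdg in the authors' deposited table, none with an adjusted p under 0.05.

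Other genes of the pathway were set beside the members, each by its brightest tested probe. The median over all 22475 gene names was 0.01, and 8.06% were called, 6.79% higher and 1.27% lower. Of 10 genes of methyl-CpG readers and related proteins 0 were called and 7 were below 0 (median -0.11). Mbd3, a NuRD subunit, differed by -0.74 (limma adjusted p = 0.0755), and Mbd4, a glycosylase with a methyl-CpG domain, by -0.63 (limma adjusted p = 0.102). Of 11 tested partners of the DNA methyltransferases 0 were called and 9 were below 0 (median -0.46). Ezh2, the histone H3 lysine methyltransferase of Polycomb, differed by -1.15 (limma adjusted p = 0.0775), and Pcna, the replication clamp, by -1.07 (limma adjusted p = 0.089).

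Of 12 tested genes of base excision and demethylation 1 was lower by the test, and the list's median was -0.13. This was Neil3, a glycosylase for oxidised bases, with levels of 0.51 and 0.37 in Junbfl/flCd4-Cre, against 2.19 and 1.67 in Junbfl/fl. Its difference was -1.49 ± 0.24 (limma adjusted p = 0.0484), with no overlap. Of the 8 enzymes of methyl donor supply 0 were called, 6 were below 0 and the median was -0.52. Ahcy, which clears S-adenosylhomocysteine, differed by -1.19 (limma adjusted p = 0.0663), and Mtrr, which reactivates methionine synthase, by -0.64 (limma adjusted p = 0.0730).

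The TET partners and cofactor enzymes held the largest differences of the pathway lists that concern methylation itself. Cxxc5, a CXXC zinc finger protein that binds unmethylated CpG, had levels of 1.01 and 0.34 in Junbfl/flCd4-Cre, against -2.74 and -3.25 in Junbfl/fl. It rose by 3.67 ± 0.33 on the log2 scale (limma adjusted p = 0.0278). Its relative Cxxc4 had levels of -2.85 and -3.35 in Junbfl/flCd4-Cre, against -4.66 and -4.55 in Junbfl/fl, where neither array had it well above background, and was at least 2.78-fold higher in Junbfl/flCd4-Cre (limma adjusted p = 0.0460). Cxxc4 too entered the test only through Junbfl/flCd4-Cre. These were 2 of 8 tested genes, none was called lower, and the list's median was -0.25.

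Among 6 Treg genes with regions known to be demethylated in Treg cells, 1 was higher and 1 lower by the test. Ikzf2, which encodes Helios, had levels of 2.75 and 2.83 in Junbfl/flCd4-Cre, against -1.11 and -2.44 in Junbfl/fl (4.56, limma adjusted p = 0.0306). Ctla4, an inhibitory receptor, had levels of -0.47 and -0.45 in Junbfl/flCd4-Cre, against 1.27 and 0.75 in Junbfl/fl (-1.47, limma adjusted p = 0.0484). Foxp3, the lineage factor whose stable expression goes with demethylation of its intronic element, was not called. It had levels of 1.32 and 2.53 in Junbfl/flCd4-Cre, against 3.09 and 3.17 in Junbfl/fl, a difference of -1.20 ± 0.45 (limma adjusted p = 0.135). The arrays measured RNA, so no methylation state of Foxp3 or any other locus was measured.

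**Figure D3:**
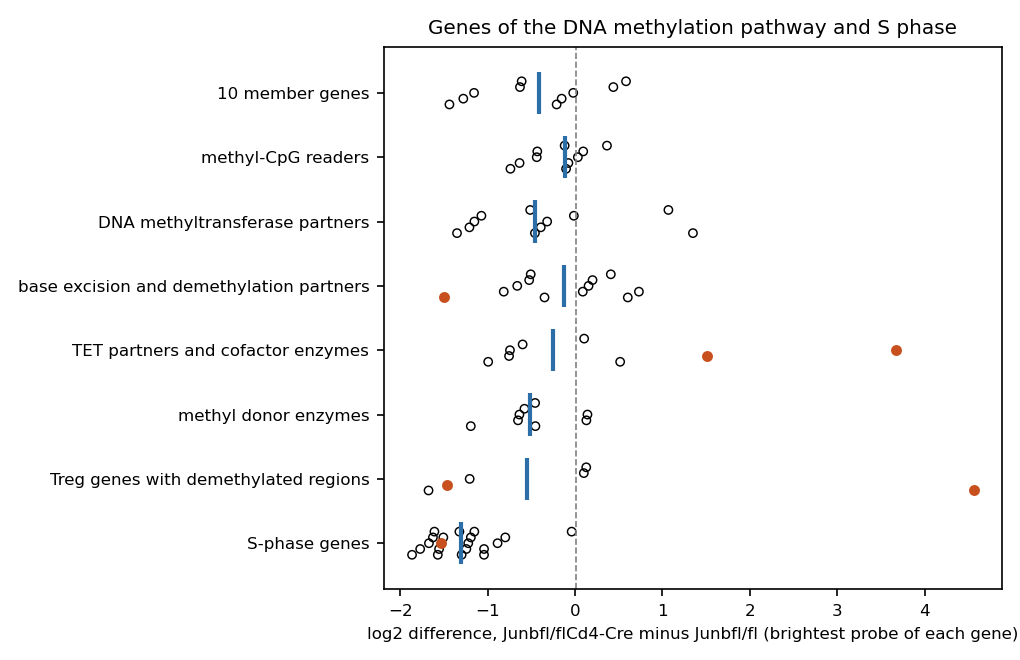
log2 difference of each tested gene, Junbfl/flCd4-Cre minus Junbfl/fl, by its brightest probe (x axis), with called genes filled, each list's median as a blue bar and the median of all gene names, 0.01, as a dashed line. The S-phase list lies lowest, with a median of -1.31, and the called Cxxc5, Cxxc4 and Ikzf2 points lie to the right.

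S-phase genes lay low on the same arrays as the lowest members. All 20 of the list were below 0, and their median was -1.31. Of these, 19 were lower without overlap, where 37.8% of all tested probes were. Only 1, Pola1, a DNA polymerase subunit, was called (-1.53 ± 0.23, limma adjusted p = 0.0454), where 1.27% of all gene names were called lower. The summed scaled signal of the 20 genes was 254 and 209 in Junbfl/flCd4-Cre and 646 and 395 in Junbfl/fl. The Junbfl/fl arrays also differed from each other in this list, with a median of 0.80 for array 1 minus array 2, and the Junbfl/flCd4-Cre arrays by 0.25. Dnmt1, Uhrf1 and the tested Dnmt3b probes were likewise higher on Junbfl/fl array 1 than on array 2, as were all Tdg and Mbd2 probes. On the Junbfl/flCd4-Cre arrays Dnmt1 and the brighter Uhrf1 probe were higher on array 1. The Uhrf1 junction probe (-2.53 and -2.49) and both tested Dnmt3b probes (1.51 and 1.78, -0.50 and -0.35) were higher on Junbfl/flCd4-Cre array 2. The part of S-phase RNA in the differences of Dnmt1, Uhrf1 and Dnmt3b was not tested.

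The genes most like Dnmt1 and Uhrf1 in their pattern were listed by the mean absolute difference of centred log2 levels over the 4 arrays, among 19686 gene names. For Dnmt1 they were Snu13, Ppil1, Gm8363, Nme6 and 4930558J18Rik (0.0192 to 0.0224). For Uhrf1 they included Dscc1, Fanca, Hells and Fbln1 (0.0281 to 0.0641). Hells, a chromatin remodeller needed for DNA methylation, is also on the list of methyltransferase partners and differed by -1.35 (limma adjusted p = 0.0978).

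Markers of other cell types were compared in the same way, though several were dim, and the dimmest class of all probes had a median of 0.68. Over all gene names 6.79% were called higher. Of 7 tested B cell markers all were above 0 and 2 were called higher, with summed scaled signals of 8.23 and 5.63 in Junbfl/flCd4-Cre and 4.0 and 1.72 in Junbfl/fl. NK cell markers were tested for 0 of 3 genes. Of 7 tested myeloid markers all were above 0 and 0 were called, with sums of 459 and 429 in Junbfl/flCd4-Cre and 268 and 262 in Junbfl/fl, and Adgre1 was not well above background on any array. Those sums are mostly Siglech, and without it they were 61.2 and 32.2 in Junbfl/flCd4-Cre and 26.3 and 17.7 in Junbfl/fl. Of 4 tested stroma markers all were above 0 and 2 were called higher. Those 2 were not well above background on either Junbfl/fl array, so they were tested only through Junbfl/flCd4-Cre. Stroma markers gave sums of 1.31 and 0.934 in Junbfl/flCd4-Cre and 0.618 and 0.584 in Junbfl/fl. The part of such cells in the members' differences was not tested.

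**Figure D4:**
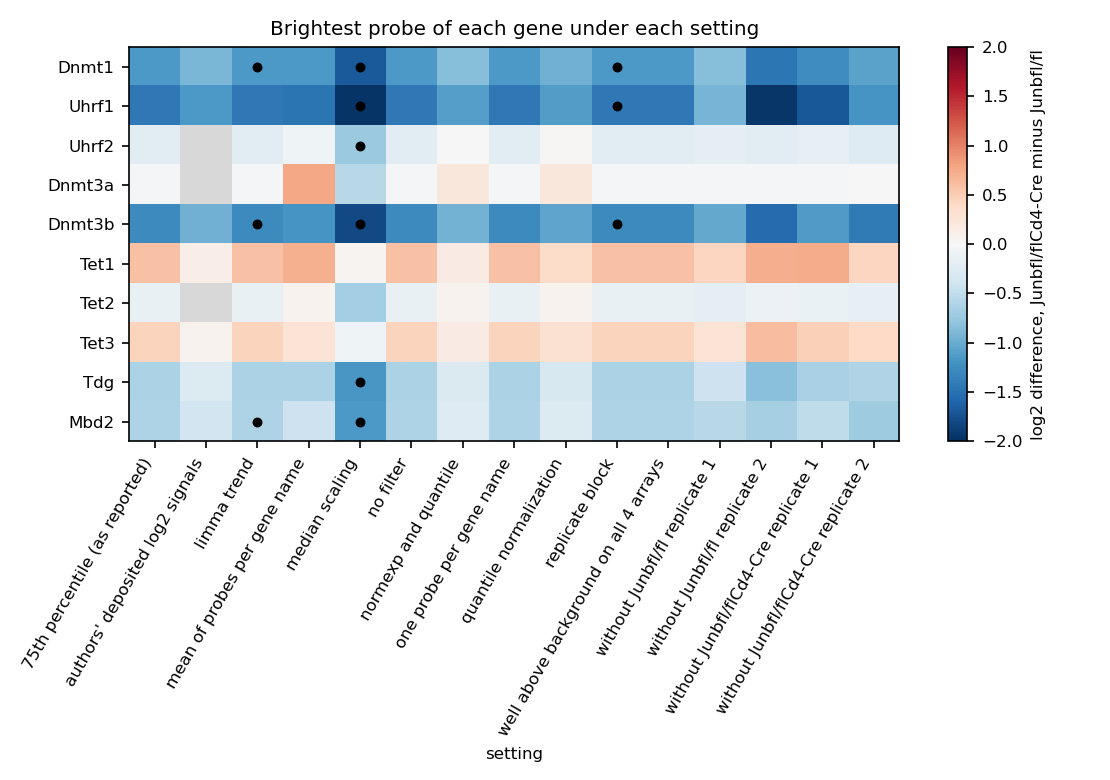
log2 difference of each gene's brightest member probe, Junbfl/flCd4-Cre minus Junbfl/fl (colour scale, cut at -2 and 2), under each processing setting, with a black dot where the adjusted p is under 0.05 and grey where the setting gives no value. Dnmt1, Uhrf1 and Dnmt3b are below 0 in every setting shown, and the calls drawn stand under median scaling, limma trend and the replicate block.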

How the data were processed

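The 4 scanner files hold, per the file headers, intensity values read with Agilent Feature Extraction 11.5.1.1. Feature Extraction's processed intensity, background-subtracted within the array, was used, with the deposited spot flags. The authors deposited a table of log2 signals, log2 differences and p-values by transcript accession, whose normalization is not given in the sources. No values in the files belong to samples of another series.

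Each array held 62976 spots, 59305 of them not controls, for 56605 probes. Spots of a probe were averaged, leaving aside 108 to 215 outlier spots an array, and 295 probes lacking usable spots on at least 1 array were dropped. The log2 processed intensity minus the array's 75th percentile was tested with limma 3.58.1 (R 4.3.3; lmFit, eBayes, no covariates) on probes that 1 or both genotypes showed well above background on each array, with Benjamini-Hochberg adjustment and a threshold of 0.05. The number of arrays limits the precision. Scripts were tested on simulated data with known changes.

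Named genes were the members, Junb, Foxp3, up to 4 called genes of each list by smallest p (otherwise the 2 with the smallest p) and the 5 genes most like Dnmt1 and Uhrf1. Of those like Uhrf1, 1 is not reported here. The Hells value, the marker genes given as not detected and the choice of probes in the text were made with values seen. The members and lists were chosen with earlier results of these data known. Symbols were updated through RefSeq accessions (32831 probes) or synonyms (517), 10168 were current and 12794 kept the file's name. Probe coordinates are those of the files (mm9). No mm9 annotation was used, so exon or UTR is not given. RefSeq windows (GRCm38.p6) were read as gene-sense: 88 probes of minus-strand genes matched their windows as written and 3 in reverse complement. The alternatives were normexp with an offset of 50, quantile normalization, median scaling, other filters, probe summaries, limma trend, a replicate block, the authors' log2 signals and leaving out each array.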

Additional observations from a re-analysis of the deposited data

How the results depend on the processing

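The counts called at an adjusted p under 0.05 depended on the processing. As reported, limma called 1 member probe, 2277 probes in all and 6 pathway list genes. Limma trend called 6, 5239 and 25, median scaling 15, 12972 and 51, quantile normalization 1, 650 and 2, normexp with quantile normalization 0, 338 and 1, and the authors' deposited log2 signals 0, 641 and 2. Members called were 0 with the mean of probes per gene, with one probe per gene and with probes well above background on all 4 arrays, the last with 1377 probes called in all; the called Dnmt3a probe is not tested in the last pair of settings. With no filter limma called 0 member probes, 0 probes and 0 list genes (9, 12028 and 34 at an unadjusted p under 0.05). Leaving out each array gave 0 to 0 for all 3 counts, which says nothing about single calls (7 to 10 member probes, 7315 to 11361 probes and 17 to 45 list genes unadjusted), with the lone array of a genotype assumed to vary like the other genotype's arrays. Of all calls 81.6% were higher in Junbfl/flCd4-Cre as reported and 18.5% with median scaling, which put the median of all tested probes at -0.54, and no filter put it at 0.22.

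With the replicate number as a block, 7 member probes (2 higher, 5 lower), 8522 probes and 31 list genes were called. The 7 were the Dnmt3a probe, Tet1 A_55_P2123002 (adjusted p = 0.0432), Dnmt1 (0.0294), Uhrf1 (0.0224 and 0.0292) and Dnmt3b (0.0408 and 0.0498). Deviations of same-numbered arrays correlated at 0.450 across probes, but the labels do not say that a number is shared, and same-numbered arrays share a row of 1 slide. All 4 arrays share that slide and its scan, so a slide or scan block could not be run.

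Dnmt1, Uhrf1 and the detected Dnmt3b probes stayed negative under all settings run, between -2.03 and -0.74. Signs turned for the probes below, the farthest from 0 being Tet3 A_52_P491273 at 0.44, and the cause was not tested. Median scaling gave -0.42 and -0.43 for Uhrf2 (A_65_P00679, A_65_P17091), -0.52 and -0.37 for Dnmt3a (A_52_P169048, A_55_P2719189), -0.094 and -0.42 for Tet3 (A_52_P491273, A_55_P2175260) and -0.41 for Mbd2 (A_51_P256337). Normexp with quantile normalization gave 0.014 and -0.071 for Uhrf2 (A_51_P141772, A_65_P17091), 0.23, -0.031 and -0.040 for Dnmt3a (A_55_P2178084, A_52_P169048, A_55_P2719189), 0.073 for Tet2 (A_55_P2081303), -0.017 for Tet3 (A_55_P2175260) and -0.12 for Mbd2 (A_51_P256337). For the same probes quantile normalization alone gave 0.030 and -0.26, 0.22, -0.075 and -0.50, 0.077, -0.11 and -0.33. The authors' deposited log2 signals gave -0.044 and -0.064 for Uhrf2 (A_65_P00679, A_65_P17091) and -0.26 for Mbd2 (A_51_P256337). The mean of probes gave 0.77 for Dnmt3a and 0.063 for Tet2. Leaving out each array gave -0.67 to 0.99 and -0.12 to 0.15 for Dnmt3a (A_55_P2719189, A_52_P169048), -0.073 to 0.28 for Uhrf2 (A_65_P17091), -0.088 to 0.31 for Tet3 (A_55_P2175260) and -0.23 to 0.47 for Mbd2 (A_51_P256337).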
